A study of Mus musculus with 8 samples.

Results

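The genes described here encode the T cell antigen receptor and its coreceptors: the CD3 chains (Cd3d, Cd3e, Cd3g) and the zeta chain (Cd247), the receptor constant regions (Trac, Trbc1, Trbc2), both CD8 chains (Cd8a, Cd8b1) and Cd4. They were chosen by name, with earlier results of these data known, and are 10 of the 55335 genes in the files. RNA came from cells sorted as CD8 T cells out of B16 tumours, a mouse melanoma cell line, that had grown for 14 days after intravenous injection. The WT group is wild-type C57BL/6 mice and the CD36_KO group is CD36 KO mice of the same strain background, which lack a scavenger receptor for fatty acids and oxidised lipoproteins. The 8 samples are 4 sequencing lanes of 1 library per genotype by their titles, and no source used here gives the number of animals in a library, their age or the gates of the sort. No genotype difference below therefore has a replicate check, and every interval is a 95% interval of counting error only. In such bulk RNA, more cells of a type and more RNA per cell cannot be told apart.

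The alpha and beta chains of the receptor recognise peptide on MHC molecules but carry no signalling motif of their own. They are assembled with the CD3 gamma, delta and epsilon chains and the zeta chain, whose tyrosine-based activation motifs are phosphorylated by the kinase LCK. CD8, usually an alpha-beta dimer, and CD4 bind MHC class I and class II, and both bring LCK to the receptor. Mature T cells as a rule keep CD8 or CD4, not both, and CD8 alpha is also found on a class of dendritic cells.

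Cd3g, Cd3d and Cd3e are neighbours on chromosome 9. In GENCODE M21 on GRCm38, Cd3g (44969572 to 44980431, minus strand) and Cd3d (44981786 to 44987339, plus strand) point away from each other with starts 1355 bases apart, and Cd3e (44998740 to 45009627, minus strand) ends 11401 bases beyond Cd3d. Cd247 is on chromosome 1 (165788681 to 165877277). Cd8b1 (71322788 to 71337494), Cd8a (71373427 to 71379173), Trbc1 (41538218 to 41539881), Trbc2 (41546730 to 41548352) and Cd4 (124864692 to 124888221) are on chromosome 6, and Trac is on chromosome 14 (54220521 to 54224206). Annotated genes overlap Cd247 (6 genes) and Cd3e (2 genes), and since no source used here gives the strand setting of the counting, reads of overlapping genes on the other strand may not have been told apart.

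The promoters of the 4 CD3 complex genes are shown because these genes were all higher in the same library. Each runs 5′ to 3′ on the gene's strand from 250 bases before to 50 after the start (RefSeq, GRCm38.p6), at chr9:44981536-44981835 (plus) for Cd3d, chr9:45009562-45009861 (minus) for Cd3e, chr9:44980382-44980681 (minus) for Cd3g and chr1:165788431-165788730 (plus) for Cd247. Capitals mark the letters GGAAGT or the reverse ACTTCC, a form of the site for ETS family factors. Shorter or other forms of that site were not searched and are not marked.
Cd3d: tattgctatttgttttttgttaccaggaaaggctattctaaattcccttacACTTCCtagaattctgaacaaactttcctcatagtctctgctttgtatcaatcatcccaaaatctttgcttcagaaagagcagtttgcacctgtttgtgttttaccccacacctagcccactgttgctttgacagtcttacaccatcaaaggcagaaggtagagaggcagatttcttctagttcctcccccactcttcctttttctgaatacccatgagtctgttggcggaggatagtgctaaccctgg
Cd3e: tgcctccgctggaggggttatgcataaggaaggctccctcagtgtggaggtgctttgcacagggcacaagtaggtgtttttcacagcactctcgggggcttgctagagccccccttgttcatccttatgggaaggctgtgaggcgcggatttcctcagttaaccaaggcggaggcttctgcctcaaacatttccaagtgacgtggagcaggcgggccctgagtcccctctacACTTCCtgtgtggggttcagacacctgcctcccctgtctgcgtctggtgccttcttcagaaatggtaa
Cd3g: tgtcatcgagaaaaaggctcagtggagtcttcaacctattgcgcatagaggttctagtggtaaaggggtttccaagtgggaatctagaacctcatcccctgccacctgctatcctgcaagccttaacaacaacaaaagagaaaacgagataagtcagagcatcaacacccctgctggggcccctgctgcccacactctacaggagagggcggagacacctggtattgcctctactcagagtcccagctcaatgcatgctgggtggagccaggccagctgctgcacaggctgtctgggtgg
Cd247: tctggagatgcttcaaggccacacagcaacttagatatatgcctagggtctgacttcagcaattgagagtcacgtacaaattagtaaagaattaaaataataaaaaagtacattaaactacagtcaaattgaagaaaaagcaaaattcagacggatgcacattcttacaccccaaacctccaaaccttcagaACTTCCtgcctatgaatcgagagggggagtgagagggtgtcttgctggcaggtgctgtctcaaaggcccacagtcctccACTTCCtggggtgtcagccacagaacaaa
These letters were found once in Cd3d, once in Cd3e, at 2 places in Cd247 and nowhere in Cd3g or Cd8a, the fifth member with an entry, against 23.8% of 32851 promoters of the same length. TGTGGT (reverse ACCACA), the core of a RUNX site, was in 0 of the 5 and in 16.8% of all promoters, and AGATAA (reverse TTATCT), known from GATA factor binding, was in 1 of the 5, Cd3g, and in 11.2% of all. A match is a description of letters in this window and not of binding.

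The beta chain constant genes share stretches of sequence, which bears on how their counts were made. Of the 31-base words of the longest Trbc1 transcript, 45.4% also occur in the longest of Trbc2. Reads inside such stretches were divided between the genes by the authors' software, so the split is less certain than the sum. Trbc1 shared 0 such words with Trac, and Cd8a shared 0 with Cd8b1.

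The WT lanes held 2497048 to 2538468 estimated counts and the CD36_KO lanes 2569962 to 2611740. Cd36 itself had 287 to 307 counts in the WT lanes and 77 to 107 in the CD36_KO lanes, a fold of 0.254 (0.225 to 0.286). Some Cd36 reads thus remained. Its log2 ratio of -1.98 lay near the median of 10 melanoma markers, -2.26, all of them lower. The Cd36 difference is therefore no check of the genotype labels, and the part of tumour RNA in it was not tested. Over the 10 receptor genes the lanes of a library scattered by a chi-square of 0.607 (WT) and 1.27 (CD36_KO) per degree of freedom over Poisson expectation, where 1 is pure counting noise. A gene is called measured here when it averaged 5 or more CPM (counts per 1000000), which held for 12177 genes. Their median log2 ratio, CD36_KO over WT, depended on the scale: -0.13 after TMM scaling, -0.12 with DESeq2 size factors, 0.06 by total counts and 0.37 by TPM, transcripts per 1000000 corrected for length.

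The antigen receptor genes were higher in the CD36_KO library as a group, and Cd4 stood apart from them. All 10 genes were measured, and 9 were at least 2-fold higher with an interval excluding no difference, 0 lower and 1, Cd4, between. Over all measured genes, 6.5% were at least 2-fold higher and 10.8% at least 2-fold lower. The same 9 genes passed, and Cd4 did not, with DESeq2 size factors (6.66% of all genes higher, 10.4% lower) and with total counts (8.93% higher, 7.83% lower). By TPM all 10 passed 2-fold, against 12.3% of all genes higher and 2.7% lower. The 9 genes had log2 ratios, CD36_KO over WT, of 1.25 to 2.26 with a median of 1.85, which is 1.98 above the median of all genes with TMM scaling and 2.01 above it in TPM. For the same 9 genes every CD36_KO lane lay above every WT lane, as it did for 29% of all measured genes, while 23.6% had every CD36_KO lane below. Together the 10 genes made up 0.0242% of WT counts (exact binomial interval 0.0233 to 0.0252) and 0.0938% of CD36_KO counts (0.0919 to 0.0956).

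**Figure D1:**
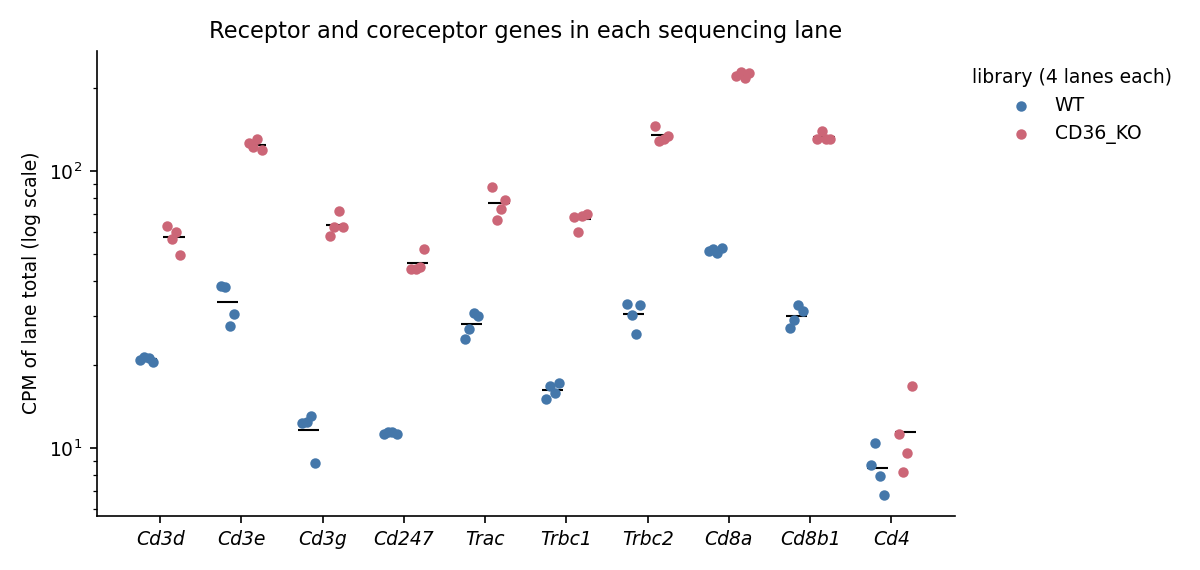
Each point is 1 sequencing lane, with CPM of the lane total on a log axis, the genes on the x axis, and WT (blue) beside CD36_KO (red). Black lines are means over 4 lanes. The lanes separate for 9 genes and mix for Cd4.

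**Figure D2:**
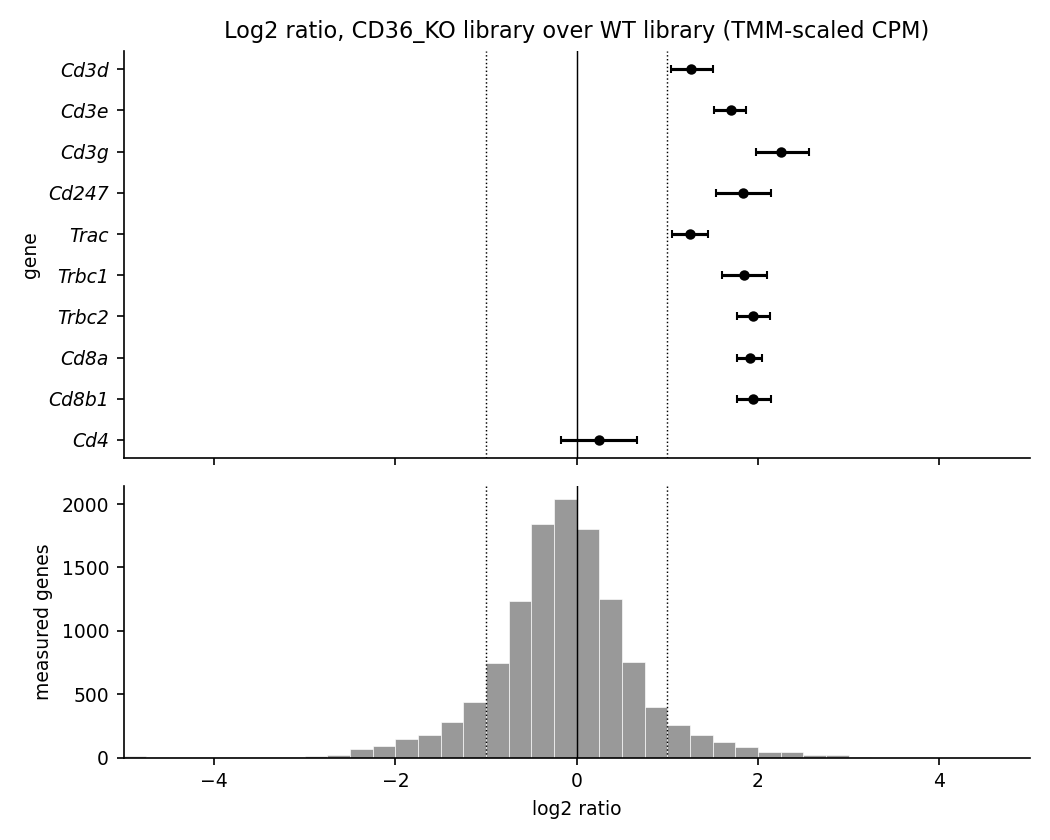
The upper panel gives the log2 ratio, CD36_KO over WT, of each gene with its 95% counting interval, and the lower panel counts all 12177 measured genes by the same ratio. Dotted lines mark 2-fold. The 9 genes from Cd3d to Cd8b1 lie between 1.25 and 2.26, and Cd4 at 0.25.

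Cd3e encodes the epsilon chain, which pairs with both gamma and delta. Its WT lanes held 97, 95, 70 and 76 counts and its CD36_KO lanes 329, 314, 342 and 307, a 3.24-fold difference (2.87 to 3.66). Every CD36_KO lane was more than the highest WT lane, as for the other CD3 genes. Cd3g, the gamma chain, had 31, 31, 33 and 22 counts against 152, 162, 187 and 162, which is 4.8-fold (3.94 to 5.9), the highest of the 10. Cd3d, the delta chain, had 53, 53, 54 and 51 counts against 166, 146, 158 and 128, which is 2.4-fold (2.05 to 2.82). The gamma and delta intervals did not overlap. Cd247, whose zeta chain carries several activation motifs, had 28, 28, 29 and 28 counts against 116, 114, 117 and 134, or 3.58-fold (2.91 to 4.43).

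The balance among the CD3 chains was thus not the same in both libraries. Ratios of counts within a library need no scaling between libraries. Those of single CD3 chains were chosen after their values were seen. Cd3g counts were 0.555 of Cd3d counts in the WT library (0.439 to 0.698, lanes 0.431 to 0.616) and 1.11 in the CD36_KO library (0.991 to 1.24, lanes 0.917 to 1.26), a change of 2.0-fold (1.54 to 2.6). Lanes of the libraries did not overlap in this ratio. Against Cd3e, Cd3g was 1.48-fold higher (1.17 to 1.88) and Cd3d stood at 0.741 of its WT ratio (0.606 to 0.908). Lanes overlapped for Cd3g to Cd3e (0.289 to 0.471 in WT, 0.462 to 0.547 in CD36_KO) and not for Cd3d to Cd3e (0.543 to 0.766 and 0.418 to 0.504). In mean TPM the changes were 2.41 for Cd3g to Cd3d, 1.38 for Cd3g to Cd3e and 0.575 for Cd3d to Cd3e. The last lies outside its counting interval. Cd247 against the sum of Cd3d, Cd3e and Cd3g was 0.171 in WT and 0.188 in CD36_KO, and the interval of that change, 0.879 to 1.39, includes no difference.

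The receptor constant regions differed in size of change between the alpha and beta chains. Trac, the alpha constant region, had 63, 67, 78 and 75 counts in the WT lanes and 229, 171, 190 and 202 in the CD36_KO lanes, which is 2.37-fold (2.07 to 2.73). Trbc2 had 84, 75, 65 and 82 counts against 378, 329, 342 and 344, which is 3.86-fold (3.41 to 4.38). Trbc1 had 38, 42, 40 and 43 against 178, 154, 180 and 180, a fold of 3.6 (3.03 to 4.3). Each gene's lanes were separate. Trac was the lowest of the 9 higher genes in counts, nearly level with Cd3d (2.4-fold, 2.05 to 2.82). On the log2(TPM + 1) scale Cd3d was lowest, at 1.53, and Trac was at 1.85. Trac counts were 0.603 of the summed Trbc1 and Trbc2 counts in WT (0.519 to 0.701) and 0.38 in CD36_KO (0.35 to 0.412). The change of 0.63 (0.53 to 0.748) excludes no difference, and the lanes of this ratio did not overlap (0.516 to 0.743 against 0.354 to 0.412). In mean TPM the same change was 0.636. Trbc1 to Trbc2 was 0.533 in WT and 0.498 in CD36_KO, a change of 0.935 whose interval (0.754 to 1.16) includes no difference, within the limits that shared sequence sets on this split.

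**Figure D3:**
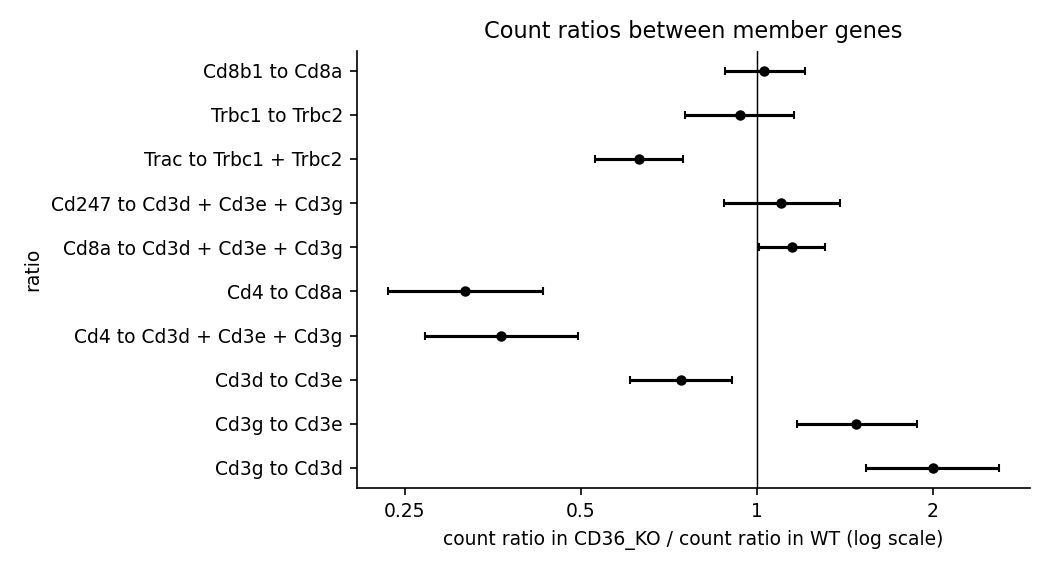
The x axis (log scale) gives how a count ratio between genes differed between libraries, as the CD36_KO ratio divided by the WT ratio, with 95% counting intervals. A value of 1 means the same ratio. Ratios with Cd4 as numerator lie lowest, at 0.317 and 0.365, and Cd8b1 to Cd8a lies at 1.03.

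The variable segments, which are joined to the constant regions by recombination and make the receptors of T cell clones differ, moved the same way. The 35 Trbv genes summed to 163 counts in the WT library (33 to 46 per lane) and 617 in CD36_KO (140 to 166), a log2 ratio of 1.68 (1.43 to 1.94). The 128 Trav genes summed to 117 (23 to 37 per lane) and 403 (88 to 115), a log2 ratio of 1.55 (1.25 to 1.86). With at least 3 counts, 19 Trbv genes were detected in WT and 21 in CD36_KO, 19 of them in both, and 14 and 50 Trav genes, 12 in both. With at least 1 count, 23 Trbv genes were detected in WT and 22 in CD36_KO. Detection was not compared at matched counts. The most abundant Trbv gene, named after its value was seen, held a like share in each library, Trbv16 with 10.4% of Trbv counts in WT (6.19 to 16.2) and Trbv13-2 with 10.4% in CD36_KO (8.08 to 13.1). These counts say nothing of single clones.

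Both CD8 chains were higher, with overlapping intervals. Cd8a had 131, 131, 128 and 132 counts in the WT lanes and 575, 586, 567 and 579 in the CD36_KO lanes, a 3.75-fold difference (3.41 to 4.13). Cd8b1, whose beta chain is largely restricted to T cells, had 69, 72, 83 and 78 against 340, 361, 343 and 337, or 3.87-fold (3.42 to 4.4). Cd8b1 counts were 0.579 of Cd8a counts in WT and 0.598 in CD36_KO, and the change of 1.03 had an interval of 0.882 to 1.21. In TPM, which is per length, Cd8b1 stood at 1.06 of Cd8a in WT and 1.09 in CD36_KO. Cd8a against the summed CD3 counts was 0.784 and 0.904, a change of 1.15 with an interval (1.01 to 1.31) just above no difference. The lanes of this ratio overlapped (0.722 to 0.886 in WT, 0.825 to 0.97 in CD36_KO), and in mean TPM the change was 1.1. Dendritic cells can carry CD8 alpha too. Of 6 genes of these cells 4 were measured, 0 higher, 2 lower (Cadm1 at -1.28 and Tlr3 at -1.03) and 2 between. Those between were Clec9a, with 62 and 70 counts, and Irf8, with 588 and 688. Xcr1 (31 and 29 counts) and Batf3 (16 and 12) averaged under 5 CPM. The summed TPM of the 6 genes was 25.9 to 32.5 per WT lane and 27.7 to 32.4 per CD36_KO lane.

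Cd4 was low in both libraries and did not pass 2-fold. Its lanes held 22, 26, 20 and 17 counts in WT and 29, 21, 25 and 43 in CD36_KO, a log2 ratio of 0.25 (-0.17 to 0.67). The lanes of the libraries overlapped in counts and CPM, and without CD36_KO lane 4, the highest, the log2 ratio was 0.0. Relative to Cd8a, Cd4 counts were 0.163 in WT (0.128 to 0.205) and 0.0516 in CD36_KO (0.0425 to 0.062), a change of 0.317 (0.234 to 0.431). Relative to the summed CD3 counts the change was 0.365 (0.271 to 0.495). In mean TPM these changes were smaller, 0.48 and 0.529. On the log2(TPM + 1) scale Cd4 itself was at 1.14, past 2-fold. Its lanes did not overlap in TPM, at 1.69 to 3.15 in WT and 4.49 to 10.3 in CD36_KO. Of 8 helper and regulatory T cell genes 4 were measured, of which 1 was higher, the costimulatory receptor gene Icos (1.47), and 3 were between. These were Ikzf2 (0.28), Il2ra (-0.03) and Zbtb7b (-0.44), the factor that directs thymocytes to the CD4 lineage. The other 4 averaged under 5 CPM, with WT and CD36_KO counts of 20 and 48 for Foxp3, the regulatory T cell factor, 30 and 60 for Ctla4, 14 and 48 for Tnfrsf4 and 2 and 15 for Cd40lg. The summed TPM of the 8 genes was 12.3 to 14.8 per WT lane and 24.2 to 33.1 per CD36_KO lane, with no overlap.

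The Cd4 counts were spread over transcripts in a different way in each library. The coding transcript had 58.7 estimated counts in WT (11.4 to 18.8 per lane) and 55.7 in CD36_KO (12 to 16.1), a log2 ratio of -0.31 (-0.87 to 0.24). The rest lay mostly on a short transcript of 946 bases annotated as retained intron, with 22.1 and 48.3 estimated counts. Since TPM divides by length, this short transcript stood at 1.38 and 3.87 TPM, above the coding one at 0.982 and 1.15 TPM. The direction of the whole-gene Cd4 ratio thus rested on transcripts that are not annotated as coding.

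Retained-intron transcripts are annotated for 6 members. For Cd4 they held 31% of estimated counts in WT (16.8 to 43.0 over lanes) and 48.6% in CD36_KO (40.2 to 57.2), with overlapping lanes. For Cd8a they held 31.6% of estimated counts in WT (26.9 to 33.6 over lanes) and 35.2% in CD36_KO (31.5 to 38.5), all on 1 transcript that keeps the first intron. The lanes overlapped. For Cd3e the share was 14.5% (11.6 to 16.6) and 21.9% (14.5 to 25.8), again with overlapping lanes. For Cd3g it was 19.7% and 15.0%, for Cd247 3.32% and 4.26%, and for Cd3d 3.04% and 0. Over 6943 measured genes with such a transcript the median share was 10.3% in WT and 12.7% in CD36_KO, and the shares of Cd8a, Cd4, Cd3e and Cd3g were above it in both libraries. On coding transcripts alone, a choice made after the data were seen, the log2 ratios were 1.31 for Cd3d, 1.57 for Cd3e, 2.34 for Cd3g, 1.9 for Cd247 and 1.83 for Cd8a. Cd8a has 1 coding transcript with, and 1 without, a 31-base exon (71375888 to 71375918 on chromosome 6), and these also differ at their ends. The form with the exon held 219.4 estimated counts in WT and 975.2 in CD36_KO, the form without it 137.6 and 520.1. Such estimates divide reads among overlapping transcripts and are less certain than gene sums.

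**Figure D4:**
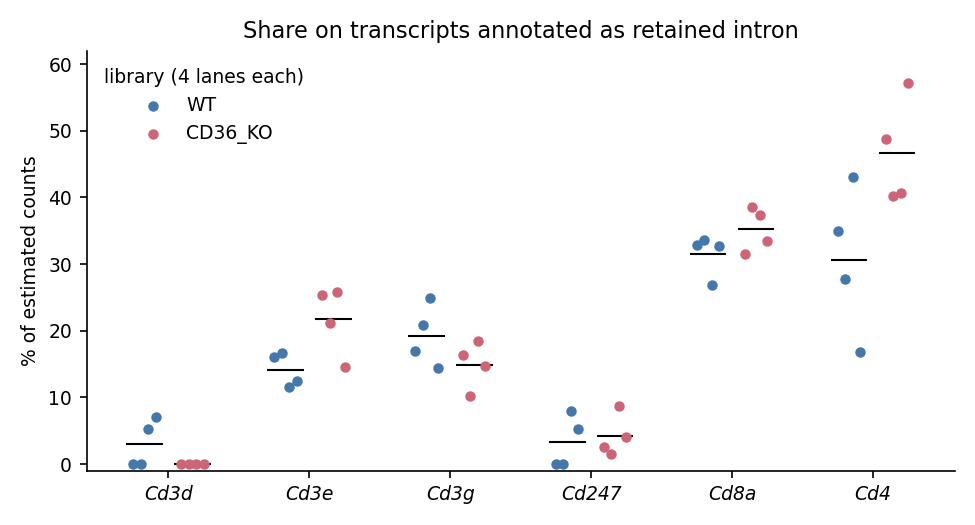
The y axis is the percentage of a gene's estimated counts on transcripts annotated as retained intron, with 1 point per lane and black lines for means over 4 lanes, for the 6 genes that have such a transcript. Cd4 and Cd8a have the highest shares in both libraries, and the lanes of WT (blue) and CD36_KO (red) overlap for Cd8a and Cd4.

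Levels per length put the members in nearly the same order in both libraries. In TPM (mean ± SD over 4 lanes of 1 library) the WT order ran from Trbc2 (28.3 ± 3.0) through Trac (22.5 ± 3.04), Trbc1 (14.4 ± 1.39), Cd3e (13.3 ± 2.54), Cd8b1 (11.2 ± 1.08), Cd8a (10.6 ± 0.485), Cd3d (9.11 ± 2.37), Cd3g (5.84 ± 0.801) and Cd247 (4.33 ± 0.597) to Cd4 (2.5 ± 0.617). Neighbours from Trbc1 down to Cd3d, and Trbc2 and Trac, differed by less than the sum of their SDs. In CD36_KO the order was Trbc2 (168 ± 10), Trac (83.8 ± 11.7), Trbc1 (82.6 ± 6.37), Cd3e (71.3 ± 9.2), Cd8b1 (64.4 ± 1.73), Cd8a (59.0 ± 1.17), Cd3g (43.4 ± 3.55), Cd3d (28.1 ± 2.77), Cd247 (21.6 ± 2.63) and Cd4 (6.7 ± 2.6). Here Trac, Trbc1, Cd3e and Cd8b1 formed a run of neighbours within their SDs, and Cd3d and Cd3g had changed places. Among all measured genes the CPM of these members ranged from percentile 17.9 (Cd4) to 76.4 (Cd8a) in WT and from 25.9 (Cd4) to 97.2 (Cd8a) in CD36_KO.

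Genes that carry the receptor's signal were mostly higher too. Of 20 proximal signalling genes 19 were measured, with 16 higher, 0 lower and 3 between (median log2 ratio 1.48, beside -0.13 for all genes). Themis, a regulator of receptor signalling in thymocytes, was highest (2.24), followed by the adaptor gene Skap1 (1.99). Lck, the kinase bound by CD4 and CD8 and the most abundant by TPM in CD36_KO, had 404 and 1445 counts (1.6). Lcp2, which encodes the adaptor SLP-76 and was the most abundant by TPM in WT, had 938 and 1408 counts (0.35) and was between. Runx3, a factor of the CD8 lineage, had 294 and 571 counts (0.72) and was between. Adaptors with the same kind of motif in other receptors split, with Cd79a (2.61) and Cd79b (2.35) of the B cell receptor higher and Fcer1g (-0.29) and Tyrobp (-0.24) of myeloid and NK cells between. Of 5 genes of gamma delta T cells 0 were measured. Their WT and CD36_KO counts were 16 and 50 for the delta constant gene Trdc, 12 and 19 for Tcrg-C1, 9 and 36 for Tcrg-C2, 5 and 6 for Tcrg-C4, and 43 and 55 for Sox13, a factor of this lineage. Their summed TPM was 1.96 to 4.38 per WT lane and 6.4 to 8.26 per CD36_KO lane. Of 4 pre-receptor and recombination genes 0 were measured, and the most abundant by counts, Dntt, which adds bases at receptor joints, had 16 and 27.

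Markers of other cell types moved in the same libraries, and their part in the receptor gene differences was not tested. Melanoma markers were lower for 10 of 10 (median -2.26), with a summed TPM of 1210 to 1300 per WT lane and 427 to 437 per CD36_KO lane. Macrophage markers had 0 of 11 higher and 2 lower (median -0.36), summed at 1690 to 1790 and 1940 to 1990 TPM. B cell markers were higher for 7 of 7 (median 2.61; 16.8 to 19.5 and 93.5 to 98.9 TPM) and hepatocyte markers for 8 of 8 (median 2.82; 25 to 31.6 and 277 to 285 TPM). NK markers had 2 higher and 1 lower of 3 measured (9.27 to 11.6 and 24.7 to 35.8 TPM), and dendritic cell genes of the kinds that can carry CD4 had 0 of 4 measured past 2-fold (83.8 to 96.3 and 133 to 140 TPM). Of these markers, Clec4a4 was at 0 in the WT library, with 5 counts in CD36_KO. Beside them, the CD3 and zeta genes summed to 31.2 to 34.1 TPM per WT lane and 156 to 183 per CD36_KO lane, the constant regions to 62.2 to 71.2 and 298 to 353, and the CD8 genes to 20.1 to 22.7 and 121 to 127. The defining transcripts of the labelled CD8 T cells were thus present in every lane. Each of these group sums alone lay below the melanoma and macrophage sums. Added up, the groups stayed below both in every WT lane. In every CD36_KO lane they passed the melanoma sum but not the macrophage sum. The groups hold 4, 3 and 2 genes, against 10 melanoma and 11 macrophage markers.

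**Figure D5:**
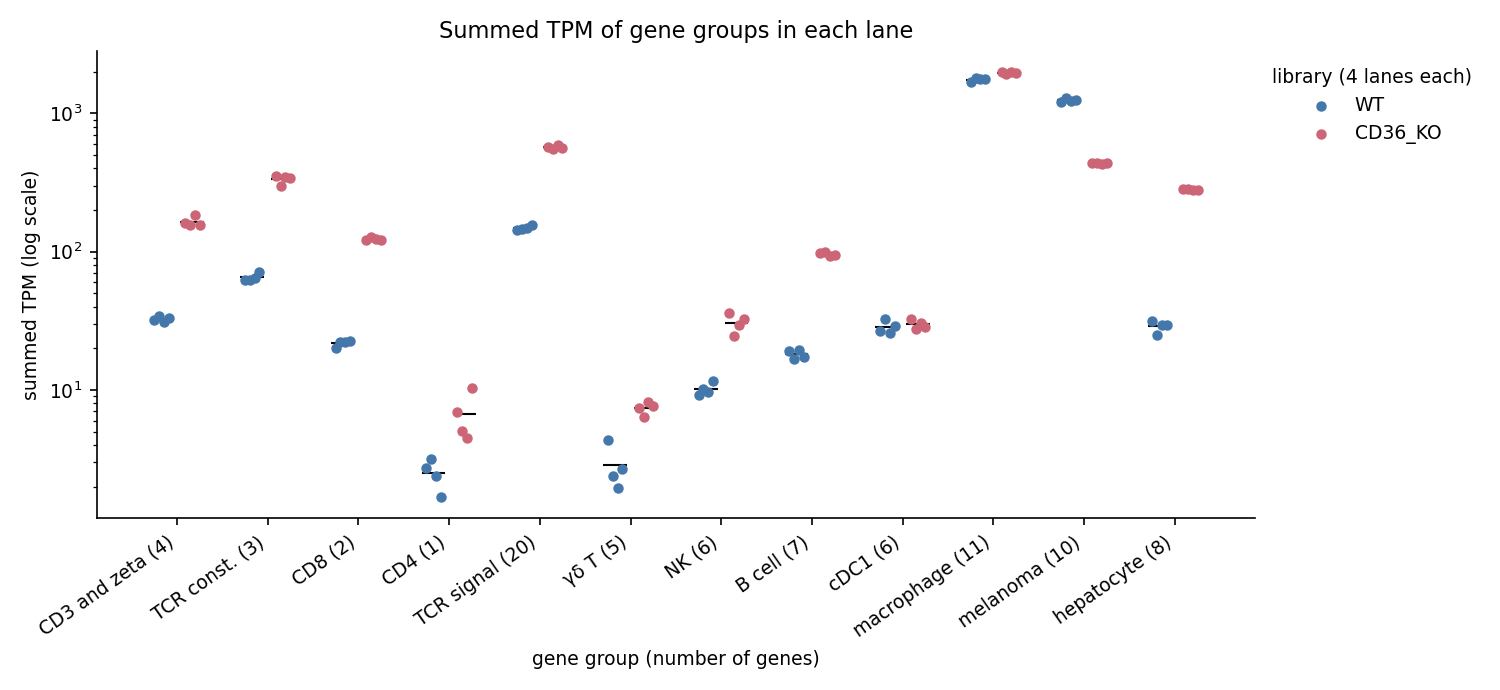
Each point is the summed TPM (log scale) of a gene group in 1 lane, WT in blue and CD36_KO in red, with black lines for means over 4 lanes and the number of genes in parentheses. Receptor, B cell and hepatocyte groups are higher in CD36_KO, the melanoma group is lower, and the macrophage group has the highest sums in both libraries. Most of the macrophage sum is Lyz2, at 1320 of 1750 TPM in WT and 1520 of 1970 in CD36_KO.

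The genes most like the members were found by the root mean square difference over 8 lanes between a gene's centred log2(CPM + 1) profile and the mean profile of the 9 members other than Cd4. Of 6487 protein-coding genes averaging 20 CPM or more, the closest were Als2cl (0.041), Ms4a6b (0.045), Ifi213 (0.048), Adgrf5 (0.067), Hbb-bs (0.068) and Cd28 (0.068), in log2 units. Among the members themselves, Cd247 (0.073) and Trbc1 (0.074) lay nearest to their mean, Cd3g (0.276) and Trac (0.287) farthest of the 9, and Cd4 lay at 0.827. With 1 library per genotype, this likeness is mostly a like ratio between libraries. Hbb-bs, a haemoglobin gene, has near-identical copies that share its reads.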

How the data were processed

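RNA-seq of sorted CD8 T cells gave 8 samples, by their titles 4 lanes of 1 library per genotype. Per the submitters' processing notes, kallisto and build GRCm38.p6 were used, and DESeq2 is named. No source used here gives versions, strand or annotation release. The deposited estimated counts are not normalised and need not be whole (33.8% to 35.4% of the 142351 transcripts per lane, zeros included, differed from a whole number by any amount). The TPM values were scaled by the authors for effective length and lane total.

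Counts were summed over transcripts to 55335 genes, then over lanes, and rounded. TMM factors came from edgeR 4.0.16 (R 4.3.3) and were 0.934 for WT and 1.07 for CD36_KO. The log2 ratio of scaled CPM carries an exact Clopper-Pearson 95% interval, and count ratios between genes a conditional exact one. Reads copied by PCR and lacking molecular identifiers are not independent, so these cover counting error only. Measured means at least 5 CPM on average, and higher or lower at least 2-fold with an interval excluding 0. No p-value is given, since lanes are not replicates of a genotype. The log2 ratio, its interval and the calls were tested on simulated Poisson counts scaled by library totals. TMM scaling, the sums over transcripts and lanes, and the count ratios between genes were not part of that test. DESeq2 1.42.0 size factors, total counts, TPM, other filters and leaving out lanes were alternatives. All 10 member gene IDs and 33 member transcripts matched GENCODE M21, and 5 members had a RefSeq promoter. Sequence of the receptor constant regions is not reported here. The members and lists were chosen with earlier results of these data known. The rule for names took all members, the 6 genes most like them and, from a list described gene by gene, at most 4 measured genes of largest change, the most abundant and any at 0. Other lists are given by counts and sums. Genes under 5 CPM, and Lyz2, were added after their values were seen.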

Additional observations from a re-analysis of the deposited data

Results flagged for a closer look

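In 4 of 20 sets of 4 lanes (10 genes in 2 libraries), 1 lane stood off from the other 3 by a gap that was most of the set's whole range. For independent values with a normal spread, chance does this in about 1 in 20 sets. Small lane counts need not be such values, so the number of sets found was not tested against that share. Cd3g in WT lane 4 stood at 8.79 CPM of the lane total, against 12.3 to 13.0 in the other WT lanes. Cd247 in CD36_KO lane 4 stood at 52.1 CPM, against 44.4 to 44.9. Trbc1 in CD36_KO lane 2 stood at 60.1 CPM, against 68.3 to 70.0, and Cd8b1 in the same lane at 140 CPM, against 130 to 131. Each of these lanes stayed on its own library's side of the gap between genotypes.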

How the results depend on the processing

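No paired analysis was possible because the lanes, numbered 1 to 4 in both libraries, are of 1 library per genotype and give no test. Whether a number names the same physical lane or run in both libraries is not known here. With DESeq2 size factors, and without any 1 lane, all 10 log2 ratios stayed within their main intervals. The lowest and highest without 1 lane were 0.0 and 0.43 for Cd4, and 2.21 and 2.38 for Cd3g. With total counts, 4 ratios left their intervals upward: Cd3e 1.89, Trbc2 2.14, Cd8a 2.1 and Cd8b1 2.15. On the log2(TPM + 1) scale 9 did: Cd3d 1.53, Cd3e 2.34, Cd3g 2.7, Trac 1.85, Trbc1 2.44, Trbc2 2.53, Cd8a 2.37, Cd8b1 2.42 and Cd4 1.14. With 0.1 added in place of 1, all 10 did: Cd3d 1.62, Cd3e 2.42, Cd3g 2.87, Cd247 2.29, Trac 1.89, Trbc1 2.51, Trbc2 2.57, Cd8a 2.47, Cd8b1 2.51 and Cd4 1.39. On coding transcripts only, Cd4 was at -0.31. In mean TPM the change of Cd4 to Cd8a was 0.48, that of Cd4 to the CD3 sum 0.529 and that of Cd3d to Cd3e 0.575. The counts of genes called higher and lower, 792 and 1314, became 1501 and 329 in TPM, 344 and 679 at 20 CPM, and 2381 and 2471 with no filter. With a floor of 1 count, 61 Trav genes were detected in WT and 84 in CD36_KO, and the order of the Trbv genes turned, with 23 and 22 in place of 19 and 21. Filters change how many genes are counted. The cause of the shifts with TPM and total counts was not tested. Gamma delta and recombination genes averaged under 5 CPM, so that intervals of their ratios were wide.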

Other observations

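Joining segments, which link variable and constant regions, were counted as genes of their own. The 60 Traj genes summed to 175 counts in the WT library (40 to 47 per lane) and 585 in CD36_KO (139 to 154), a log2 ratio of 1.5 (1.26 to 1.75). The 14 Trbj genes summed to 55 (11 to 18 per lane) and 219 (46 to 76), a log2 ratio of 1.76 (1.32 to 2.21). Trbj2-7 was the most abundant of these in both libraries, with 14.5% of Trbj counts in WT (6.5 to 26.7) and 16.9% in CD36_KO (12.2 to 22.5). Gamma and delta variable segments were few. The 6 Trdv genes held 8 and 14 counts, a log2 ratio of 0.57 whose interval (-0.78 to 2.03) includes no difference, and the 7 gamma variable genes held 8 and 23 counts (1.29, 0.07 to 2.66).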
